A study of Mus musculus with 6 samples.

Results

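Mitotic cyclins, the kinases they work with and the regulators of the anaphase-promoting complex (APC/C) were examined in regulatory T cells (Tregs) from mouse tumors. The 10 genes were chosen by name, as rows of the deposited count table: Ccna2, Ccnb1, Ccnb2, Cdk1, Aurka, Aurkb, Plk1, Birc5, Cdc20 and Ube2c, out of 23420 genes in the table. The choice was made with earlier results of these data known. All 10 were found, and all 10 were among the 10352 genes that passed the filter on low counts. RNA came from 3 anti-PD-1 libraries (4, 5 and 6) and 3 untreated libraries (1, 2 and 3). Both groups were BALB/c Foxp3-GFP mice, in which cells expressing the Treg lineage factor FoxP3 are marked by green fluorescent protein, injected with 10000 cells of T11, a transplantable claudin-low model of triple-negative breast cancer. The anti-PD-1 mice received 200 µg of the antibody J43 into the peritoneum 2 times a week, and the untreated mice received none. Tumors of both groups were taken at 150 mm2, and GFP-positive cells were sorted from them. The labels give neither the age of the mice nor whether each library is a mouse of its own, so the spread behind the p-values may be technical.

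Cells enter mitosis when cyclin-dependent kinase 1, bound to cyclin A or cyclin B, becomes active. Polo and Aurora kinases then drive centrosome maturation, spindle assembly and chromosome attachment. The APC/C, a ubiquitin ligase switched on by Cdc20, ends mitosis by marking the cyclins and the separase inhibitor securin for destruction. The genes for these proteins are transcribed in late S, G2 and M phase and are kept silent in resting cells, and they are widely used as markers of dividing T cells. In bulk RNA from sorted cells, a smaller share of dividing cells and less RNA per dividing cell cannot be told apart.

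Promoters of genes of this class are known for the cell cycle genes homology region (CHR), which binds the DREAM and MuvB complexes that hold such genes silent in resting cells, and for CCAAT boxes, which bind the factor NF-Y. RefSeq promoter windows on GRCm38.p6, of 250 bases before to 50 bases after the start, were at hand for 8 of the 10 genes, all but Ccna2 and Aurkb. A CHR match (TTTGAA or TTCGAA, either strand) was present in 6 of these 8 windows, against 19.2% of all 32851 windows. A CCAAT match on either strand was present in 7 of 8, against 37.4% of all windows, and both motifs were present in 6 of 8, against 7.52%. A match to an E2F site (TTTCCCGC, TTTCGCGC, TTTGCCGC or TTTGGCGC, either strand) was present in the Cdk1 window alone, 1 of 8, against 2.26% of all windows. No CHR match overlapped a CCAAT match in the 8 windows. The Birc5 window held none of the 3 motifs. The 110 bases before the start of 4 genes that differ in what they hold are shown, in gene direction. CHR and CCAAT matches (or their reverse complements TTCAAA and ATTGG) are in capitals. Matches farther upstream, such as a Ccnb2 CHR match at -167 to -162 from the start, lie outside these bases.
Cdk1 (chr10:69352913-69353022, minus strand): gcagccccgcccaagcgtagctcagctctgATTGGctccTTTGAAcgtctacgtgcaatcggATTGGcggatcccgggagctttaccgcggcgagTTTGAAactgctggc
Ccnb1 (chr13:100786487-100786596, minus strand): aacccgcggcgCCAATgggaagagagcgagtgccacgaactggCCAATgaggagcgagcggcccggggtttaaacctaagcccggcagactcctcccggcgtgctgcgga
Ccnb2 (chr9:70421555-70421664, minus strand): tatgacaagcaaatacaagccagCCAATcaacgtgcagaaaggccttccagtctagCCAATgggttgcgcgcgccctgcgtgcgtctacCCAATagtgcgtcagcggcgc
Cdc20 (chr4:118437344-118437453, minus strand): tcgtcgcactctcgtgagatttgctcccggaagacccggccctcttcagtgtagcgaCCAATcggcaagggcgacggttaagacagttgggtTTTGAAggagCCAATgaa
In Ccnb2, Aurka and Plk1 a CHR match lay just after the RefSeq start, and these short stretches show it.
Ccnb2 (chr9:70421531-70421554, minus strand): ggtaTTTGAAtcgcggaccgggcg
Aurka (chr2:172370524-172370547, minus strand): aggagaaccTTTGAAttgtaacgg
Plk1 (chr7:122159456-122159479, plus strand): agcgccgcgTTTGAAttcggggag
The Aurka stretch lies upstream of the first exon of that gene in the deposited table. A match is a description of letters and shows neither binding nor activity, and a window without one says nothing of the factor.

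**Figure D1:**
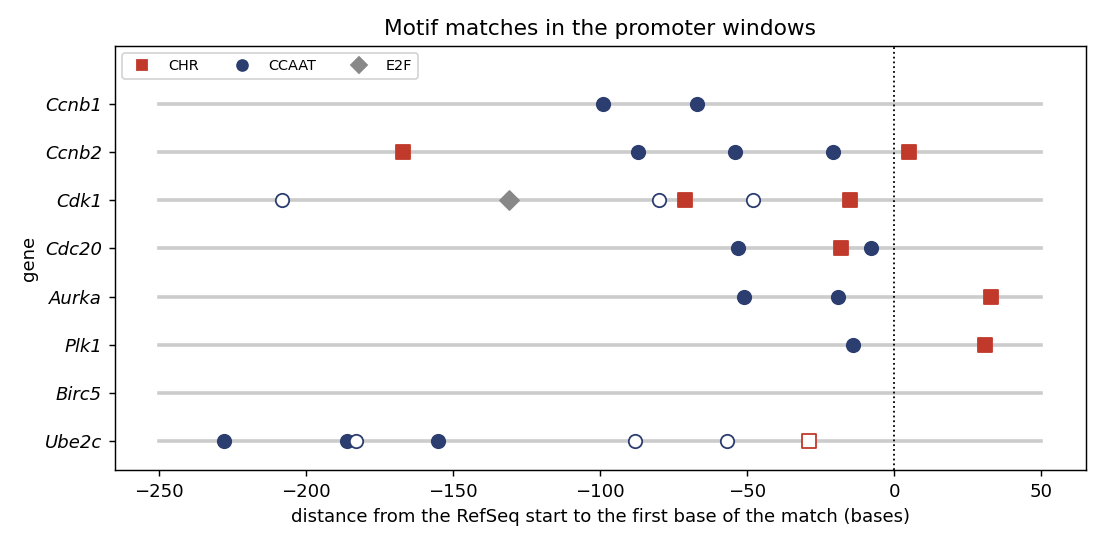
Motif matches in the promoter windows of 8 genes, with 1 grey line per window. The x axis is the distance in bases from the RefSeq start to the first base of the match. Red squares are CHR, blue circles CCAAT and the grey diamond E2F matches, filled where the match reads in gene direction and open where it reads in reverse. In 7 genes at least 1 CCAAT match lies within 100 bases before the start, and Birc5 has no match.

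The question was whether anti-PD-1 treatment went with a different level of these genes. None of the 10 passed the test after adjustment over all genes. Their values were mostly lower after anti-PD-1, with 8 of 10 log2 fold changes below 0 and a median of -0.34, where 49.9% of all tested genes lay below 0 and the median of all was 0.00164. Because the genes were chosen with earlier results known, this is a description and no test of direction. By edgeR's quasi-likelihood test with Benjamini-Hochberg adjustment at 0.05, 0 of 10 were called, against 0.029% of all tested genes in either direction and 0% lower. By unadjusted p under 0.05, 1 of 10 was lower (Ccna2) and none higher, against 4.08% of all tested genes lower and 8.31% in either direction. Limma-voom called 0 of 10, against 5 of all 10352 tested genes. DESeq2 called 0 of the 1 gene (Ccna2) to which it gave an adjusted p, against 0.785% of the genes it adjusted. The anti-PD-1 libraries all lay below the untreated ones in 1 of 10 genes (Ccnb1), against 6.44% of all tested genes, and all above them in 0 of 10, against 7.18%. The count of genes below 0 was 5 of 10 without untreated library 3, where the median was -0.125, and 9 of 10 without untreated library 1 or anti-PD-1 library 6.

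**Figure D2:**
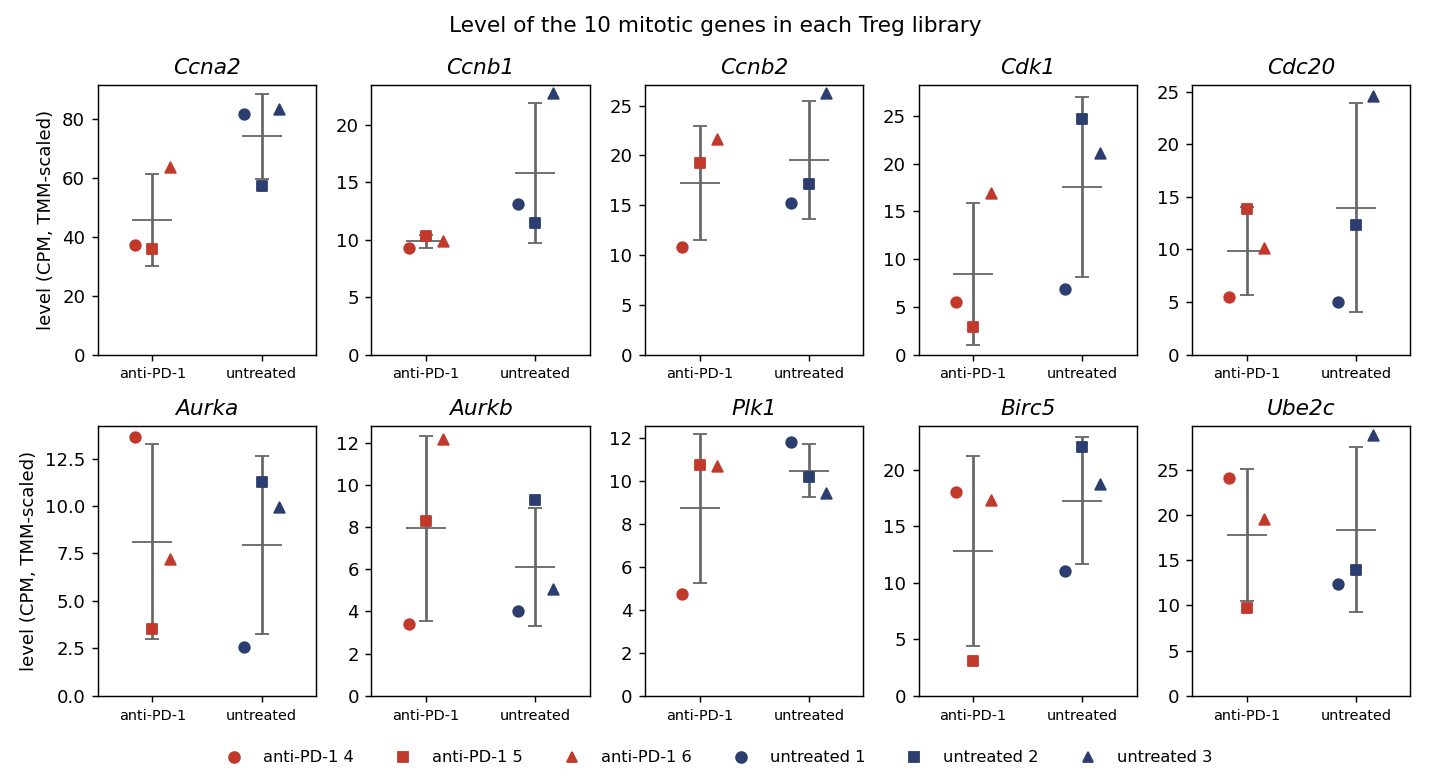
Level of each of the 10 genes, in counts scaled to library size by TMM (CPM) on the y axis, in anti-PD-1 and untreated libraries. Each point is 1 library, the horizontal dash is the group mean and the bar its SD (n = 3). Ccnb1 is the gene whose groups do not overlap, and Cdk1, Birc5, Aurka and Cdc20 have libraries far apart within a group.

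Of the cyclins, Ccna2 showed the clearest difference. Ccna2 encodes cyclin A2, which partners CDK2 in S phase and CDK1 at mitotic entry. Its level was 37.3, 36.0 and 63.7 CPM after anti-PD-1 (libraries 4, 5 and 6), against 81.6, 57.4 and 83.5 CPM untreated (libraries 1, 2 and 3). Anti-PD-1 library 6 lay above untreated library 2, so the groups overlapped by that pair. The fold change was 0.612 (95% interval 0.43 to 0.872), a log2 fold change of -0.71 ± 0.25 (SE, unadjusted p = 0.0086, edgeR adjusted p = 0.46). With 334 counts per library on average it was the most deeply counted of the 10 and had the smallest biological coefficient of variation (BCV, the spread between libraries of a group beyond counting), 22.2%. The gene lies at chr3:36564865-36571996 on the minus strand in mm10, and 378 of its exonic bases are shared with exons of Exosc9 on the plus strand. The counts were assigned by strand, and Exosc9 averaged 19.9 ± 5.48 CPM in anti-PD-1 and 26.0 ± 11.8 CPM in untreated libraries (SD, n = 3 per group). Without anti-PD-1 library 4 or 5 the unadjusted edgeR p of Ccna2 was 0.0571 or 0.0527. It was 0.00135 without anti-PD-1 library 6, 0.00355 without untreated library 2 and 0.0387 without untreated library 3.

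Ccnb1 encodes cyclin B1, the main mitotic partner of CDK1. It stood at 9.29, 10.3 and 9.89 CPM after anti-PD-1 (libraries 4, 5 and 6), against 13.1, 11.4 and 22.8 CPM untreated (libraries 1, 2 and 3). The anti-PD-1 libraries were close together and below every untreated library, and untreated library 3 was far above the others. The nearest values across groups were those of anti-PD-1 library 5 and untreated library 2. Their exact 95% Poisson intervals, for counting error only, overlapped (7.68 to 13.6 and 8.81 to 14.6 CPM). The log2 fold change was -0.68 ± 0.43 (edgeR adjusted p = 0.708), and it was -0.33 without untreated library 3. Ccnb2, the Golgi-associated cyclin B2, stood at 10.8, 19.2 and 21.6 CPM in anti-PD-1 libraries, against 15.2, 17.2 and 26.3 CPM in untreated ones. Its groups overlapped, with a fold change of 0.875 (95% interval 0.511 to 1.496).

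Cdk1, the catalytic subunit that the mitotic cyclins activate, had the fold change farthest below 0 and a wide spread. It stood at 5.50, 2.90 and 16.9 CPM after anti-PD-1 (libraries 4, 5 and 6), against 6.88, 24.7 and 21.1 CPM untreated (libraries 1, 2 and 3). Anti-PD-1 library 6 and untreated library 1 each lay among the values of the other group. The log2 fold change was -1.05 ± 0.54, a fold change of 0.484 (95% interval 0.225 to 1.04, edgeR adjusted p = 0.628). Within the anti-PD-1 group the lowest library held 14 counts (exact 95% Poisson interval 7.65 to 23.5) and the highest 82 (65.2 to 102). Within the untreated group the lowest held 43 (31.1 to 57.9) and the highest 138 (116 to 163). These intervals, which cover counting error only, did not overlap within either group, and the BCV was 48.4%. The log2 fold change was -2.02 without anti-PD-1 library 6 and -1.45 without untreated library 1. It was -0.65 without anti-PD-1 library 5, -0.80 without anti-PD-1 library 4, -0.72 without untreated library 2 and -0.88 without untreated library 3. In the ratio of cyclin B transcripts (Ccnb1 and Ccnb2 summed) to Cdk1, per length, libraries ranged from 3.10 to 16.7 after anti-PD-1 and from 1.86 to 6.46 untreated, with overlap and no test.

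Among the Aurora and Polo kinases the values did not separate the groups. Aurka encodes the centrosomal and spindle pole kinase Aurora A. It stood at 13.6, 3.52 and 7.21 CPM after anti-PD-1 (libraries 4, 5 and 6), against 2.56, 11.3 and 9.95 CPM untreated (libraries 1, 2 and 3). The highest library was treated and the lowest untreated, with a log2 fold change of 0.09 ± 0.58. Plk1, the Polo-like kinase of mitotic entry and cytokinesis, stood at 4.74, 10.8 and 10.7 CPM after anti-PD-1, against 11.8, 10.2 and 9.44 CPM untreated. Anti-PD-1 library 4 stood apart, below the other 5, and the fold change was 0.821 (95% interval 0.417 to 1.62).

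Aurkb and Birc5 encode Aurora B and survivin, both parts of the chromosomal passenger complex, which corrects chromosome attachment and guides cytokinesis. Aurkb stood at 3.41, 8.28 and 12.2 CPM after anti-PD-1 (libraries 4, 5 and 6), against 4.00, 9.29 and 5.06 CPM untreated (libraries 1, 2 and 3). Birc5 stood at 18.0, 3.10 and 17.3 CPM in anti-PD-1 libraries, against 11.05, 21.98 and 18.7 CPM in untreated ones. Both overlapped between groups, and the low value of Birc5 was that of anti-PD-1 library 5, with 15 counts (exact 95% Poisson interval 8.40 to 24.7). The log2 fold changes pointed in opposite directions, 0.38 ± 0.57 for Aurkb and -0.40 ± 0.46 for Birc5, and neither was past the threshold (edgeR adjusted p = 0.895 and 0.852). Without anti-PD-1 library 5 the value of Birc5 was 0.0474. Of the other passenger subunits, Incenp, the scaffold, stood at 61.6, 41.6 and 59.8 CPM after anti-PD-1, against 92.5, 62.7 and 84.7 CPM untreated. Its groups did not overlap, with a log2 fold change of -0.56 ± 0.22 (edgeR adjusted p = 0.539). Cdca8, which encodes borealin, averaged 19.0 ± 6.12 CPM after anti-PD-1 and 23.2 ± 5.83 CPM untreated (SD, n = 3 per group). The 4 subunits of the complex thus had log2 fold changes from -0.56 to 0.38.

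On the side of the APC/C, Cdc20, the coactivator that turns the complex on in mitosis, had untreated libraries far apart. It stood at 5.50, 13.9 and 10.1 CPM after anti-PD-1 (libraries 4, 5 and 6), against 4.96, 12.3 and 24.6 CPM untreated (libraries 1, 2 and 3). The lowest and the highest library were both untreated. The log2 fold change was -0.51 ± 0.52 (edgeR adjusted p = 0.83), and it was 0.193 without untreated library 3. Ube2c, the ubiquitin-conjugating enzyme that starts ubiquitin chains for the APC/C, stood at 24.1, 9.73 and 19.6 CPM after anti-PD-1, against 12.3, 13.9 and 28.8 CPM untreated. Its groups overlapped throughout, with a fold change of 0.978 (95% interval 0.546 to 1.75). Per length, Cdc20 stood to Fzr1, the coactivator of late mitosis and G1 also known as Cdh1, at ratios of 1.02, 0.806 and 0.848 in anti-PD-1 libraries and 0.440, 1.30 and 2.07 in untreated ones, which overlap, with no test.

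**Figure D3:**
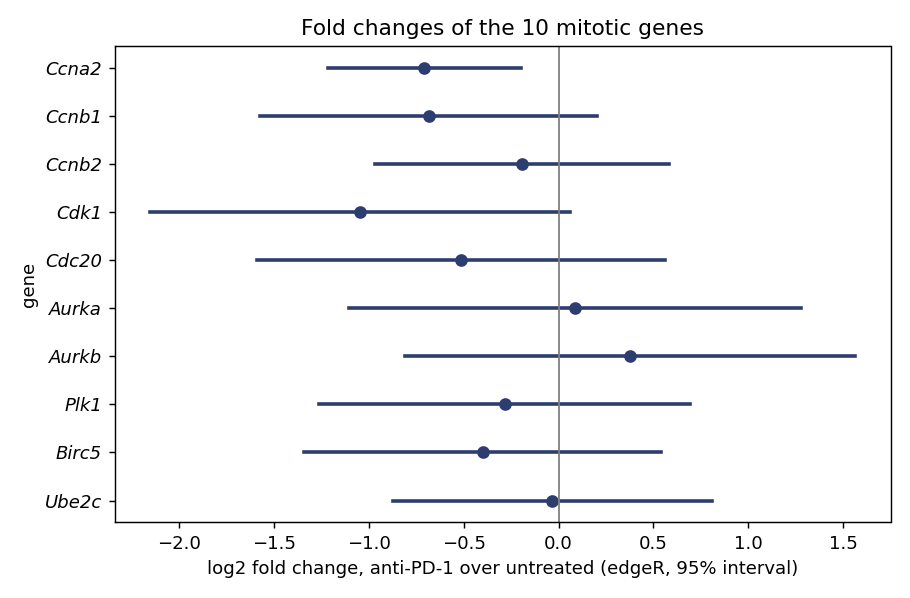
Log2 fold change of each gene, anti-PD-1 over untreated, on the x axis, from edgeR with 3 libraries per group. Points are the estimates and bars the 95% intervals before adjustment over genes. The interval of Ccna2 (-1.22 to -0.20) does not reach 0, and those of the other 9 genes include it.

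The intervals show what these 6 libraries could resolve. The 95% interval of Aurkb reached from a fold change of 0.57 to 2.96, and that of Aurka from 0.466 to 2.42, so neither a fall nor a rise of these sizes could be told from no change. Average counts of the 10 genes ran from 37.3 per library for Aurkb to 334 for Ccna2, at which counting alone gives coefficients of variation of 16.4% and 5.47%. The BCVs were larger, between 22.2% for Ccna2 and 52.5% for Aurka, and 9 of 10 lay above the middle of all tested genes, at percentiles from 54.7 to 79.0, while Ccna2 lay at 32.2. These percentiles were not matched for level. Ccna2 averaged 59.9 CPM over all 6 libraries and the other genes 7.03 to 18.4 CPM, and the part of level in the ranks was not tested. The ratio of the highest to the lowest library over all 6 was 8.51 for Cdk1 and 7.08 for Birc5, against 2.32 for Ccna2.

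As levels per length, in CPM per kilobase of exon (RPKM), the order was led by the same 3 genes in both groups. After anti-PD-1 these were Ube2c at 19.1 ± 7.88, Ccna2 at 16.2 ± 5.55 and Ccnb2 at 11.2 ± 3.69 RPKM. In untreated libraries they were Ccna2 at 26.4 ± 5.19, Ube2c at 19.7 ± 9.78 and Ccnb2 at 12.7 ± 3.85 RPKM (SD, n = 3 per group). Ccna2 and Ube2c overlapped in both groups, so their order is not settled. The other 7 genes averaged 2.95 to 5.50 RPKM after anti-PD-1 and 3.13 to 7.83 RPKM untreated, with Cdc20 highest among them in both, and neighbours in that order overlapped.

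The 10 genes did not move as a block across libraries. Their summed level was 132, 118 and 189 CPM after anti-PD-1 (libraries 4, 5 and 6), against 164, 190 and 250 CPM untreated (libraries 1, 2 and 3). Anti-PD-1 library 6 thus lay between the untreated libraries, and Ccna2 gave a large part of each sum: without it, the sums were 94.97, 81.8 and 126 CPM after anti-PD-1, against 82.0, 132 and 167 CPM untreated. Untreated library 3 was the highest library for 5 of the 10 genes. Anti-PD-1 libraries 4 and 5 were each the lowest for 4, but for different genes: Ccnb1, Ccnb2, Aurkb and Plk1 in library 4, and Ccna2, Cdk1, Birc5 and Ube2c in library 5. Untreated library 1, which a multidimensional scaling of all genes sets apart (2.40 on dimension 1, the others between -0.665 and -0.392), was high for Ccna2 and Plk1 and the lowest for Aurka and Cdc20. On dimension 2, anti-PD-1 library 5 lay at 1.62 and the others between -1.14 and 0.148.

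**Figure D4:**
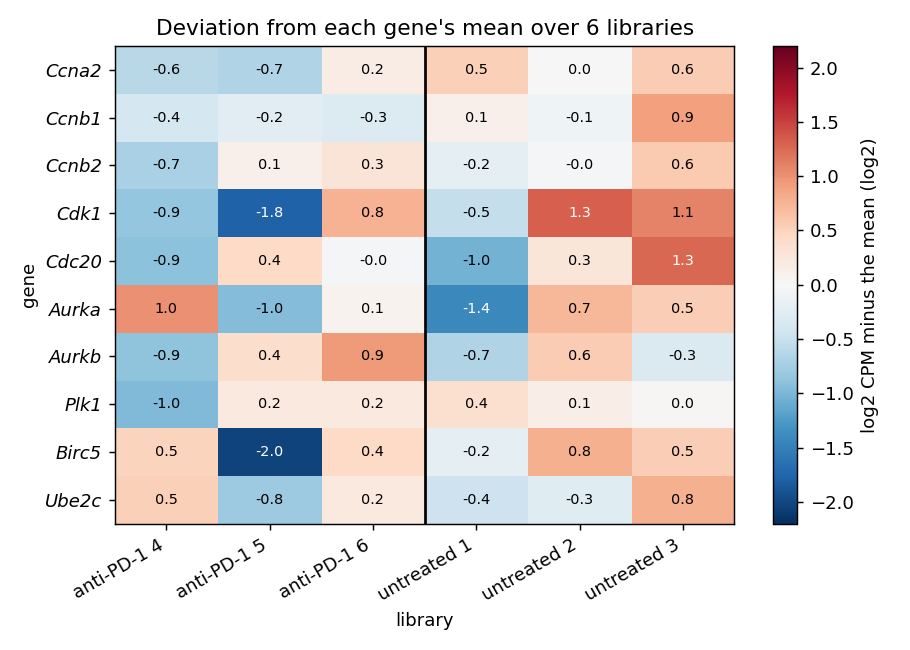
Log2 CPM of each gene (rows) in each library (columns), as the difference from the gene's own mean over the 6 libraries. Red is above and blue below the mean, and the black line divides anti-PD-1 libraries on the left from untreated ones on the right. No library has the same colour in all 10 genes, and anti-PD-1 library 5 is dark for Cdk1 and Birc5.

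Pearson correlations of log2 CPM over the 6 libraries, given as a description, had a median of 0.343 over the 45 pairs of genes, and 33 pairs were above 0. With log2 CPM centred within each group the median was 0.293. All pairs share the same 6 libraries and their depth. The pairs most alike were Ccnb2 with Cdc20 (r = 0.847), Cdk1 with Birc5 (0.804) and Aurka with Ube2c (0.732). The pairs most opposed were Aurka with Plk1 (-0.663) and Plk1 with Ube2c (-0.55). Cdk1 followed the mean of the other 9 most closely (r = 0.866), and Plk1 (0.175), Aurkb (0.2) and Aurka (0.234) least.

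Among 8692 other genes with a mean of at least 5 CPM, the 8 whose log2 CPM followed the mean standardised profile of the 10 most closely over the 6 libraries had r between 0.966 and 0.986. They were the chromokinesin gene Kif4, the histone acetyltransferase gene Kat7, the replicative helicase subunit gene Mcm6, the condensin subunit gene Ncaph, 1810022K09Rik, Fgfr1op2, Cdca2, which encodes a chromatin-bound regulator of protein phosphatase 1, and the histone gene Hist1h2bk. Kif4 stood at 11.6, 11.2 and 23.1 CPM after anti-PD-1 (libraries 4, 5 and 6), against 15.5, 21.1 and 29.7 CPM untreated (libraries 1, 2 and 3). Likeness of shape does not mean likeness of size: Kat7 moved only between 94.4 and 110 CPM. None of the 8 passed edgeR's test (adjusted p from 0.551 to 0.949), and 60 of the 8692 genes had r above 0.9. With 8692 genes ranked over only 6 libraries, unrelated genes can also reach a high r, and r was not tested. Mki67, the proliferation marker, had r = 0.834.

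Other genes of mitotic control were taken from 6 lists with 65 entries, of which 61 were tested. These lists too were chosen with earlier results of these data known. By edgeR with adjustment over all genes 0 of 61 were called, against 0.029% of all tested genes. Limma-voom also called 0 of 61, against 5 of all 10352 tested genes. DESeq2 called 0 of the 21 to which it gave an adjusted p, against 0.785% of the genes it adjusted. At an unadjusted p under 0.05, 7 of 61 were lower and 0 higher, where 4.08% of all tested genes were lower. All anti-PD-1 libraries lay below all untreated ones in 8 of 61, against 6.44% of all tested genes. They lay above them in 1 of 61, against 7.18%. The median log2 fold change was -0.11. Partners and regulators of the cyclin kinases lay on both sides of 0, 3 of 8 below, with a median of 0.07. Wee1, the kinase that holds CDK1 inactive, averaged 11.6 ± 3.21 CPM after anti-PD-1 and 19.8 ± 6.26 CPM untreated, with no overlap and a log2 fold change of -0.78 ± 0.40 (edgeR adjusted p = 0.628). Cks2, a small CDK-binding protein, averaged 27.3 ± 7.67 CPM after anti-PD-1 and 18.4 ± 7.57 CPM untreated (0.58 ± 0.36). The phosphatase genes that activate CDK1 stood at 0.51 ± 0.45 (Cdc25a) and 0.03 ± 0.21 (Cdc25b).

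Cofactors of the Aurora, Polo and Greatwall kinases were listed together with the kinase genes Plk4, Nek2, Mastl and Gsg2. All values in this list lay below 0, 10 of 10 tested, against 49.9% of all tested genes, with a median of -0.52. At an unadjusted p under 0.05, 3 of the 10 were lower, against 4.08% of all tested genes. Tpx2, which activates Aurora A on the spindle, averaged 30.6 ± 6.91 CPM after anti-PD-1 and 51.4 ± 16.2 CPM untreated, with overlap. Its log2 fold change was -0.74 ± 0.28 (edgeR adjusted p = 0.506). Its kinase Aurka had 0.09 ± 0.58 in the same fit. The others were Incenp, described above with Aurkb, and Gsg2, the gene of the histone kinase haspin. Gsg2 stood at 3.79, 0 and 5.36 CPM after anti-PD-1, against 6.72, 11.4 and 6.58 CPM untreated. At these low levels its p lay just under the threshold (edgeR unadjusted p = 0.04996, adjusted p = 0.598). Bora, which helps Aurora A activate Plk1, had -0.70 ± 0.49.

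Subunits of the APC/C were listed with its coactivator Fzr1, its inhibitor Fbxo5 and the ubiquitin-conjugating enzyme Ube2s. This list had 7 of 16 tested values below 0 and a median of 0.07. Anapc1, a scaffold subunit, was among the most even, at 192 ± 8.88 CPM after anti-PD-1 and 182 ± 10.1 CPM untreated (0.08 ± 0.16). Cdc23, another subunit, was higher in every anti-PD-1 library than in any untreated one, at 37.7, 35.4 and 38.1 CPM after anti-PD-1 against 24.3, 22.7 and 29.3 CPM untreated (0.54 ± 0.27, edgeR adjusted p = 0.625). Fbxo5, the inhibitor known as Emi1 that keeps the APC/C off through S and G2 phase, averaged 12.6 ± 4.53 CPM after anti-PD-1 and 23.2 ± 6.89 CPM untreated, with no overlap (-0.89 ± 0.38, edgeR adjusted p = 0.551). Ube2s, which extends the chains that Ube2c starts, averaged 15.9 ± 3.72 CPM after anti-PD-1 and 11.2 ± 2.62 CPM untreated (0.51 ± 0.40, edgeR adjusted p = 0.775).

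In a list of further APC/C substrates that also held Espl1, the gene of separase, 4 of 6 lay below 0. Hmmr, a spindle protein, averaged 18.6 ± 5.17 CPM after anti-PD-1 and 36.7 ± 12.5 CPM untreated, with overlap (-0.999 ± 0.33, edgeR adjusted p = 0.449). Gmnn, the licensing inhibitor geminin, stood at 18.2, 14.9 and 18.3 CPM after anti-PD-1, against 22.2, 27.5 and 27.5 CPM untreated. Its groups did not overlap, with a log2 fold change of -0.58 ± 0.33 (edgeR adjusted p = 0.663). Pttg1, the gene of securin, had -0.59 ± 0.33.

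Of the transcription factors and complexes that control these genes, 10 of 16 lay below 0, with a median of -0.13. Lin9, a core subunit of the MuvB complex, stood at 23.7, 27.1 and 25.8 CPM after anti-PD-1, against 38.1, 41.3 and 43.0 CPM untreated. The groups were well apart, with a log2 fold change of -0.68 ± 0.27 (edgeR adjusted p = 0.532). Rbl1, the pocket protein p107, averaged 114 ± 12.5 CPM after anti-PD-1 and 155 ± 4.00 CPM untreated (-0.45 ± 0.17, edgeR adjusted p = 0.498). Foxm1, the activator of G2 and M phase genes, averaged 7.46 ± 5.56 CPM after anti-PD-1 and 12.0 ± 1.19 CPM untreated (-0.70 ± 0.50). Foxm1 was chosen after its values were seen, as were Bora, Cdc25b, Anapc1, Fzr1 and Cdca8. E2f1, an activator of S phase genes, averaged 3.14 ± 2.10 CPM after anti-PD-1 and 6.73 ± 0.586 CPM untreated, with no overlap (-1.13 ± 0.65, edgeR adjusted p = 0.686). The 5 mitotic exit phosphatase genes had a median of -0.02, with 3 below 0. Cdc14a, whose relative in budding yeast reverses CDK phosphorylation at mitotic exit, averaged 54.5 ± 3.38 CPM after anti-PD-1 and 73.4 ± 26.2 CPM untreated, with overlap (-0.42 ± 0.24, edgeR adjusted p = 0.684). Ppp1cc, a catalytic subunit of protein phosphatase 1, had -0.15 ± 0.24, and Ppp2r2a, a regulatory subunit of protein phosphatase 2A, had -0.02 ± 0.16.

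**Figure D5:**
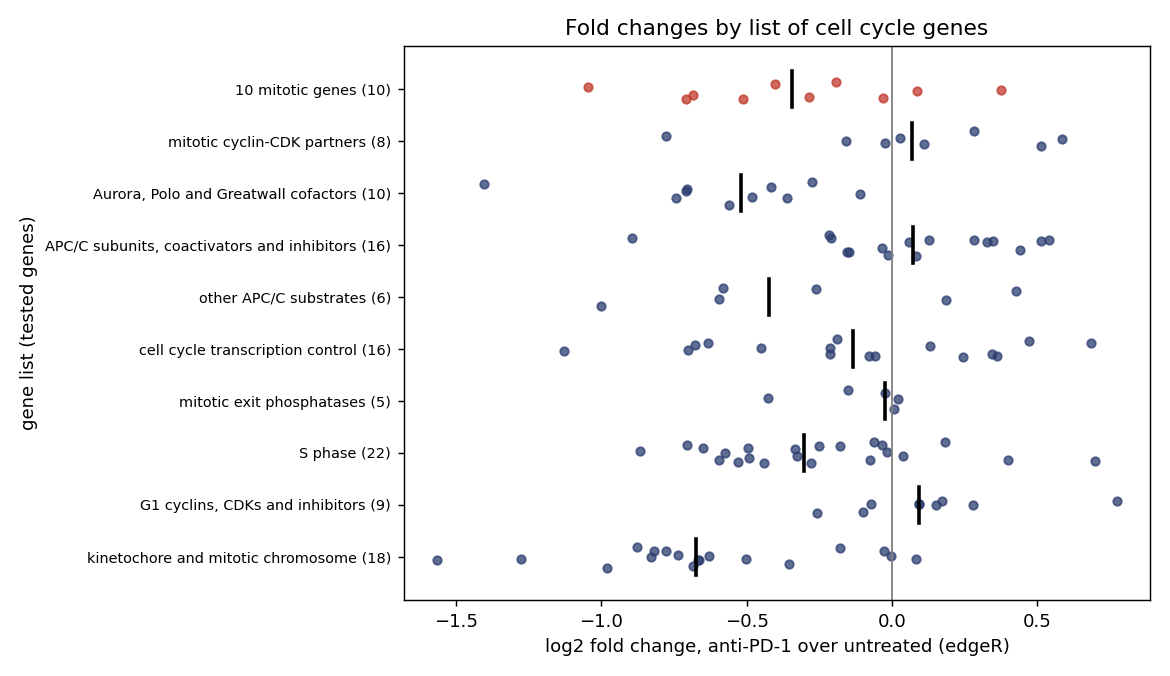
Log2 fold changes, anti-PD-1 over untreated, of the 10 genes (red) and of 9 lists of other cell cycle genes (blue), 1 point per tested gene, with the list's median as a black bar. The number of tested genes is in parentheses. The 10 genes have a median of -0.34, the Aurora, Polo and Greatwall list, which holds cofactors and further kinases, -0.52, and the APC/C list 0.07.

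Set beside other phases, 18 of 22 S phase genes lay below 0 with a median of -0.30, close to that of the 10 genes, and 3 of 9 G1 cyclin, kinase and inhibitor genes with a median of 0.09. Genes of the kinetochore and mitotic chromosome had 17 of 18 below 0, a median of -0.67 and 13 lower at an unadjusted p under 0.05. The same count was 4 of 22 in the S phase list and 0 of 9 in the G1 list, against 4.08% of all tested genes. The smallest p-values in the S phase list were those of Rrm1 (-0.59 ± 0.19), Pola1 (-0.58 ± 0.21) and Rrm2 (-0.70 ± 0.27), and in the kinetochore and chromosome list those of Ndc80 (-1.56 ± 0.42), Smc2 (-0.74 ± 0.20) and Mki67 (-0.82 ± 0.22), none called by edgeR (adjusted p from 0.29 to 0.522). Whether the 10 genes differ from these lists, which were also chosen with earlier results known, was not tested. Ccnd3, a G1 cyclin, averaged 47.3 ± 5.29 CPM after anti-PD-1 and 27.8 ± 5.94 CPM untreated (0.77 ± 0.26, edgeR adjusted p = 0.459), in the other direction from Ccna2. Of the other G1 genes, Ccnd2 had 0.17 ± 0.15 and the inhibitor gene Cdkn2d 0.28 ± 0.38.

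Total counts ran from 4766533 to 5219249 in the anti-PD-1 libraries and from 5470816 to 6686774 in the untreated ones, without overlap. The Treg markers Foxp3, Cd4, Cd3e, Il2ra, Ikzf2 and Ctla4 were detected in every library. Foxp3 averaged 522 CPM after anti-PD-1 and 450 CPM untreated, Cd4 477 CPM after anti-PD-1 and 422 CPM untreated, and Cd3e 538 CPM after anti-PD-1 and 473 CPM untreated. Ctla4 averaged 1270 CPM after anti-PD-1 and 1690 CPM untreated, Ikzf2 1820 CPM after anti-PD-1 and 2140 CPM untreated, and Il2ra 1090 CPM after anti-PD-1 and 1390 CPM untreated. The first 3 were thus higher and the last 3 lower on average after anti-PD-1, without a test of each. The summed share of all 6 was 0.538% to 0.615% of counts after anti-PD-1 and 0.644% to 0.66% untreated (two-sided exact permutation p = 0.1, the smallest that 3 against 3 allows, 0.55 adjusted over 11 measures). Of 12 tumor cell and fibroblast markers 11 were detected (Krt8 at 0 in all libraries), with a summed share of 0.00542% to 0.00774% after anti-PD-1 and 0.00521% to 0.00734% untreated. Of 7 macrophage and monocyte markers 6 were detected (C1qa at 0), at 0.000496% to 0.00121% after anti-PD-1 and 0.000329% to 0.000824% untreated. Of 3 neutrophil markers, S100a9 and Csf3r were at 0 in all libraries. The CD8 T cell markers Cd8a and Cd8b1 made up 0.00188% to 0.00518% after anti-PD-1 and 0.00103% to 0.00318% untreated, highest in anti-PD-1 library 5, which was low in Cdk1 and Birc5. B cell markers were also highest in that library, at 0.000434% to 0.00193% after anti-PD-1 and 0.000284% to 0.00102% untreated. NK cell markers were highest in untreated library 3 (0.000927%) and dendritic cell markers in untreated library 2 (0.000366%). The part of other cells or of depth in the values of the 10 genes was not tested.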

How the data were processed

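RNA of sorted tumor Tregs was measured by sequencing in 6 libraries. The deposited table holds raw fragment counts by gene. Per the file headers, the authors counted bbmap alignments with featureCounts 1.5.2 against a UCSC mm10 annotation, with strand setting 1. The header also gives each gene's exonic length in bases, used here for RPKM. The submitters' processing notes name bcl2fastq, FastQC and DESeq2. Aligner settings, read filters and duplicate removal were not given in the sources used here. A further unnamed column (1, with 6 values) was not used.

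From the counts, edgeR 4.0.16 in R 4.3.3 was run on the whole table. The filterByExpr defaults (minimum count 10, minimum total 15) kept 10352 genes holding 99.8% of counts. Libraries were scaled by TMM, and treatment was the only term of a two-sided quasi-likelihood test (robust, edgeR's newer method) whose p-values were Benjamini-Hochberg adjusted across every tested gene, with a threshold of 0.05. CPM are TMM-scaled, errors are SDs over libraries or SEs of the fit, and log2 CPM used a prior count of 2. No library pair was near-identical (chi-square per degree of freedom from 9.71 to 30.8). BCVs are edgeR's tagwise estimates, which this form of the test does not use. Alternatives used DESeq2 1.42.0, limma-voom 3.58.1, other scalings and filters, edgeR's older fit and leaving out each library. The 10 genes and all lists were chosen with earlier results of these data known. Genes singled out after their values were seen are named as such. Otherwise, beyond the 10 genes, up to 3 genes per list were named by smallest unadjusted p, plus the 8 genes of most similar profile. Plk4, Nek2, Mastl and Espl1 are named only to say what their lists hold. Of 168 list entries, 2 matched through a synonym (Haspin as Gsg2, Adgre1 as Emr1). Promoter sequences come from RefSeq on GRCm38.p6 and were matched by symbol.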

Additional observations from a re-analysis of the deposited data

How the results depend on the processing

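In 15 alternatives, none of the 10 genes passed the threshold (DESeq2 gave 9 of them no adjusted p), and Ccna2, Ccnb1 and Cdk1 kept their direction in all of them. The sign of a gene turned in 11 of 150 refits, all of values that were not called. It turned without anti-PD-1 library 4 for Ccnb2 (0.0643), Aurka (-0.535) and Plk1 (0.0288). It turned without anti-PD-1 library 5 for Birc5 (0.0474) and Ube2c (0.255), without anti-PD-1 library 6 for Aurkb (-0.0688), without untreated library 1 for Aurka (-0.357), without untreated library 3 for Ccnb2 (0.0785), Cdc20 (0.193) and Ube2c (0.45), and with upper quartile scaling for Ube2c (0.00249). The cause was not tested. Over the refits without 1 library, log2 fold changes ran from -2.02 to -0.653 for Cdk1, -0.393 to 0.0785 for Ccnb2, -0.94 to 0.193 for Cdc20, -0.535 to 0.437 for Aurka, -0.0688 to 0.795 for Aurkb, -0.464 to 0.0288 for Plk1, -0.742 to 0.0474 for Birc5 and -0.325 to 0.45 for Ube2c. In the same refits they ran from -1.018 to -0.566 for Ccna2 and from -0.855 to -0.328 for Ccnb1. The count of all genes called, 3 in the reported fit, was 34 with DESeq2, 5 with limma-voom, 5 with upper quartile scaling, 7 with library size only, 52 with no filter, 5 with a mean CPM of at least 5 and 5 without robust shrinkage, and 1 to 19 without 1 library. With profiles centred within groups, 0 of the 8 most similar genes remained among the top 8, though their r stayed between 0.952 and 0.988. The summed level of the 10 genes, anti-PD-1 over untreated, was 0.728, and 0.622 to 0.829 without 1 library. The CHR search with TTTGAA alone, or in a shorter window, left 6 of 8 promoters with a match. No paired analysis was possible because the anti-PD-1 and untreated libraries have no replicate number in common.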

Other observations

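A spacing in the promoter windows was noticed after the sequences were seen, and was not tested. In 5 of the 8 windows, those of Ccnb1, Ccnb2, Cdk1, Aurka and Ube2c, 2 CCAAT matches in the same direction began 31 to 33 bases apart, against 0.794% of all 32851 windows. The distance was 32 bases in Ccnb1, Cdk1 and Aurka, 33 bases between each neighbouring pair of the 3 matches in Ccnb2, and 31 bases for 2 pairs in Ube2c. Such a pair together with a CHR match was present in 4 of the 8 windows and in 0.143% of all. The log2 fold changes of these 4 genes were -1.05 ± 0.54 for Cdk1, -0.19 ± 0.37 for Ccnb2, -0.03 ± 0.41 for Ube2c and 0.09 ± 0.58 for Aurka, none called.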
